A study of Sus scrofa with 17 samples.

Results

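The kidneys described here are those that received any extracellular vesicles (EVs), set against those that received none. They are the 12 kidneys labelled Group 2 (G2) or Group 3 (G3), of 17 sequenced in all, and the 5 kidneys labelled Group 1 (G1) are the untreated ones. The kidneys came from female wild-type Dutch Landrace pigs aged 6 months to 1 year. Every kidney, treated or not, had 32 min of warm ischemia, then 24 h of hypothermic machine perfusion (HMP) and then 5 h of normothermic machine perfusion (NMP), and was sampled at the end of NMP. G1 was given PBS in both perfusions. The 6 kidneys of G2 were given EVs in HMP only, which is 1 injection, and the 6 kidneys of G3 were given EVs in HMP and again in NMP, which is 2 injections. The EVs (pUPC-EVs) were made from porcine urine progenitor cells. No group had EVs in NMP only, so the number of injections and the perfusion in which they were given cannot be told apart. The question was which genes stood at the same level after either injection scheme, and which followed the number of injections.

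EVs are membrane particles that cells release and that carry proteins and RNA to other cells. A kidney without blood flow loses ATP in its tubule cells, and the return of oxygen and warmth sets off stress genes such as heat shock chaperones, immediate early transcription factors and inflammatory cytokines. Interferons act through JAK kinases and STAT factors on a large set of antiviral and antigen presentation genes, which also respond to nucleic acids that reach the inside of a cell.

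Library totals, summed over genes, lay between 19270046 and 24736473 counts. Treated kidneys had 1564424 more counts on average than G1 (two-sided exact permutation test over 6188 splits, p = 0.048), a difference whose p was 0.05 or more in 13 of the 17 cases with 1 kidney left out. All levels below are in CPM, the counts of a gene relative to the library total, scaled by TMM so that the typical gene is level between kidneys. From 18813 to 21049 genes had at least 1 count in a kidney. G2 kidney 3, G2 kidney 6 and G3 kidney 6 stood apart from the others with a TMM factor under 0.9, and mitochondrially encoded genes took up to 17.7% of the counts in G2 and up to 20.03% in G3, against at most 14.0% in G1. Tubule markers were abundant in every group: the summed level of the 15 proximal tubule markers ran from 19237 to 26682 CPM in G1, from 18855 to 35101 CPM in G2 and from 21302 to 32622 CPM in G3. No transcript shows which kidney received EVs, so the labels were taken as given.

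Pooling the treated kidneys, no gene of 26560 tested (0%) passed the edgeR quasi-likelihood test at a Benjamini-Hochberg adjusted p under 0.05. The smallest adjusted p was 0.689, and UPF3A, the gene with the smallest unadjusted p, was among those that had it. At an unadjusted p under 0.05 there were 1356 genes (5.11%), of which 443 (1.67%) were higher and 913 (3.44%) lower in treated kidneys. DESeq2 called 3 genes at an adjusted p under 0.05: UPF3A, lower in treated kidneys, and DIPK2B and BST2, higher in treated kidneys. By limma voom the 1 gene called was CAMK2A, a kinase gene read at 0 or 1 counts in each G1 kidney and at 2 to 6 counts in each treated kidney. With the code series as a covariate 1 gene without a symbol was called, and with the replicate number as a block 10 genes were, among them HSPA6 (adjusted p = 0.0072), BST2 (adjusted p = 0.0087), WSCD1 (adjusted p = 0.015), DIPK2B (adjusted p = 0.016) and BCAT2 (adjusted p = 0.027). Whether the replicate numbers pair the kidneys was not settled, and the adjusted p-values below are those without the block. All 12 treated kidneys lay on one side of all 5 G1 kidneys for 2 genes (0.00753%), UPF3A and CAMK2A, the latter named after its values were seen. The counts that follow therefore rest on unadjusted p-values. For the gene lists, which count members with a mean of at least 1 CPM, the share over all genes of that level with an unadjusted pooled p under 0.05 was 3.44%, 1.95% higher and 1.5% lower.

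At an unadjusted p under 0.05, 3.66% of all genes differed between G2 and G1, 4.24% between G3 and G1 and 3.44% between G3 and G2. To find genes that stood alike after both schemes, G2 and G3 were each compared with G1 in a fit of all 3 groups, and a gene met the same-direction criterion when both differences had the same sign and both unadjusted p were under 0.05. Both comparisons share the 5 G1 kidneys, so a low or high G1 value moves both at once. The criterion was met by 241 genes (0.907%), 93 of them higher (0.35%) and 148 lower (0.557%), and after adjustment of the larger p by none (0%). Of the 241 genes, 137 had a mean under 1 CPM, and 98 of those were lower. Among the 13711 genes with a mean of at least 1 CPM, 104 (0.759%) met the criterion, 54 higher (0.394%) and 50 lower (0.365%). That split depended on the scaling, with 16 higher of 124 when only library size was used. With the code series (runs of consecutive sample codes) as a covariate 110 of 207 were higher. With 1 kidney left out from 75 to 145 genes met the criterion, and without G1 kidney 1 there were 83 higher of 145. For 58 of the 104 genes (0.423%) the 95% confidence interval of G3 minus G2 also lay inside a 1.5-fold difference either way. Of these, 32 were higher (0.233%) and 26 lower (0.19%), where 66% of all genes of that level had such an interval. Those 58 genes differed little from G1: the log2 difference of the pooled kidneys ran from 0.22 to 0.63 in the higher genes, with a median of 0.43, and from -0.59 to -0.32 in the lower genes, with a median of -0.44.

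UPF3A, a factor of the nonsense-mediated decay pathway that removes faulty mRNAs (11:79117708-79137083 in Sscrofa11.1, as RefSeq places it), had the smallest unadjusted p of all genes. Its G1 kidneys stood at 22.5, 19.2, 21.2, 22.3 and 19.95 CPM. G2 ran from 12.9 to 16.5 CPM with a median of 14.95, and G3 from 11.6 to 18.0 CPM with a median of 14.0. Every treated kidney was below every G1 kidney, and G2 and G3 overlapped over most of their range. The log2 difference was -0.54 ± 0.10 (SE; adjusted p = 0.689), or 1.45-fold lower. G2 minus G1 was -0.51 and G3 minus G1 was -0.57, and the 95% interval of G3 minus G2 ran from -0.31 to 0.19. Within the 3 runs of consecutive sample codes, called code series A, B and C, the differences in mean log2 CPM were -0.56, -0.90 and -0.42.

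HSPA6, a heat-inducible HSP70 chaperone, was the most abundant of the 20 named genes of the same-direction set (4:88970592-88973109). Its 5 G1 kidneys stood at 923, 1026, 1131, 675 and 968 CPM. G2 ran from 437 to 714 CPM with a median of 499.7, and G3 from 276 to 870 CPM with a median of 663. G2 lay below all G1 kidneys but for G2 kidney 6, and 3 of the 6 G3 kidneys stood within the G1 range. The log2 difference was -0.72 ± 0.21 (SE; adjusted p = 0.83), with -0.85 in G2 and -0.61 in G3. HSP70 genes are close copies of each other and how reads that fit several genes were counted is not given in the sources used here, so this level is uncertain. BAG3, the cochaperone that binds HSP70, was at 613 ± 219 CPM in G1 (SD, n = 5), 516 ± 133 in G2 (SD, n = 6) and 424 ± 76.3 in G3 (SD, n = 6), with an unadjusted pooled p just under 0.05, and did not meet the same-direction criterion. These 2 were the only ones of 22 heat shock and unfolded protein genes with an unadjusted pooled p under 0.05, against 3.44% of all genes at this level (1.95% higher, 1.5% lower). Of the 22 genes 4 had a pooled value above 0, with a median of -0.13 against 0.02 over all genes of this level.

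AZIN2, an antizyme inhibitor that acts on polyamine synthesis, had G1 kidneys at 3.82, 4.62, 5.10, 4.35 and 4.69 CPM. G2 ran from 2.66 to 3.36 CPM with a median of 3.08, and G3 from 1.99 to 4.45 CPM with a median of 2.77. All of G2 and 5 of the 6 G3 kidneys were below G1, and the exception, G3 kidney 1, stood among the G1 values. Its log2 difference was -0.56 ± 0.17 (SE; adjusted p = 0.83). TWIST1, a transcription factor of mesenchymal cells, was at 2.75 ± 0.65 CPM in G1 (SD, n = 5), 1.56 ± 0.57 in G2 and 1.47 ± 0.26 in G3 (SD, n = 6 each), and 11 of 12 treated kidneys lay below all of G1. Its log2 difference was -0.86 ± 0.22 (SE; adjusted p = 0.83), with -0.83 in G2 and -0.90 in G3. The name of TWIST1 in the files comes from a table of G3 against G1, so it was singled out on the same kidneys.

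Both BCAT2, the mitochondrial enzyme that starts the breakdown of branched-chain amino acids, and SLC16A6, a monocarboxylate transporter, had lower means in both treated groups. BCAT2 was at 126 ± 14.7 CPM in G1 (SD, n = 5), 93.5 ± 32.9 in G2 and 74.2 ± 3.74 in G3 (SD, n = 6 each). All 6 G3 kidneys were below G1, whereas G2 spread from 57.0 to 133 CPM and only 3 of its kidneys were below G1. SLC16A6 was at 22.1 ± 6.31, 14.0 ± 6.99 and 11.5 ± 2.36 CPM in the same order, with a pooled log2 difference of -0.79 ± 0.22 (SE; adjusted p = 0.83). Only 5 of 12 treated kidneys were below all of G1 for SLC16A6, and G2 kidney 1, at 27.7 CPM, was above all of G1. BCAT2 and SLC16A6 were the only genes past an unadjusted p of 0.05 among 24 of branched-chain and fatty acid metabolism, where 1.5% of all genes of that level were lower, and the list's median pooled log2 difference was 0.12, against 0.02 over all genes.

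The remaining lower genes of the named set were less separated. EPHB3, an ephrin receptor, went from 13.4 ± 4.44 CPM in G1 to 9.54 ± 1.52 in G2 and 8.12 ± 0.76 in G3, and 6 of 12 treated kidneys were below all of G1. C5AR2, a complement receptor, stood at 2.49 ± 0.84, 1.38 ± 0.34 and 1.45 ± 0.45 CPM, a level of 20 to 81 counts per kidney in G1 and G2. CDPF1 was at 68.8 ± 12.7, 49.7 ± 10.4 and 52.6 ± 2.83 CPM, and SAMD11 at 4.12 ± 1.06, 2.72 ± 0.525 and 2.19 ± 0.72 CPM (SD, n = 5, 6 and 6). SH3TC2 had the largest fold of the lower set, a log2 difference of -1.67 ± 0.45 (SE; adjusted p = 0.83), yet this rested on G1 kidney 1 at 25.9 CPM and G1 kidney 5 at 23.0 CPM, while the other G1 kidneys stood at 3.56, 1.91 and 6.12 CPM, among the treated ones. Without either of those G1 kidneys SH3TC2 no longer met the criterion.

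**Figure D1:**
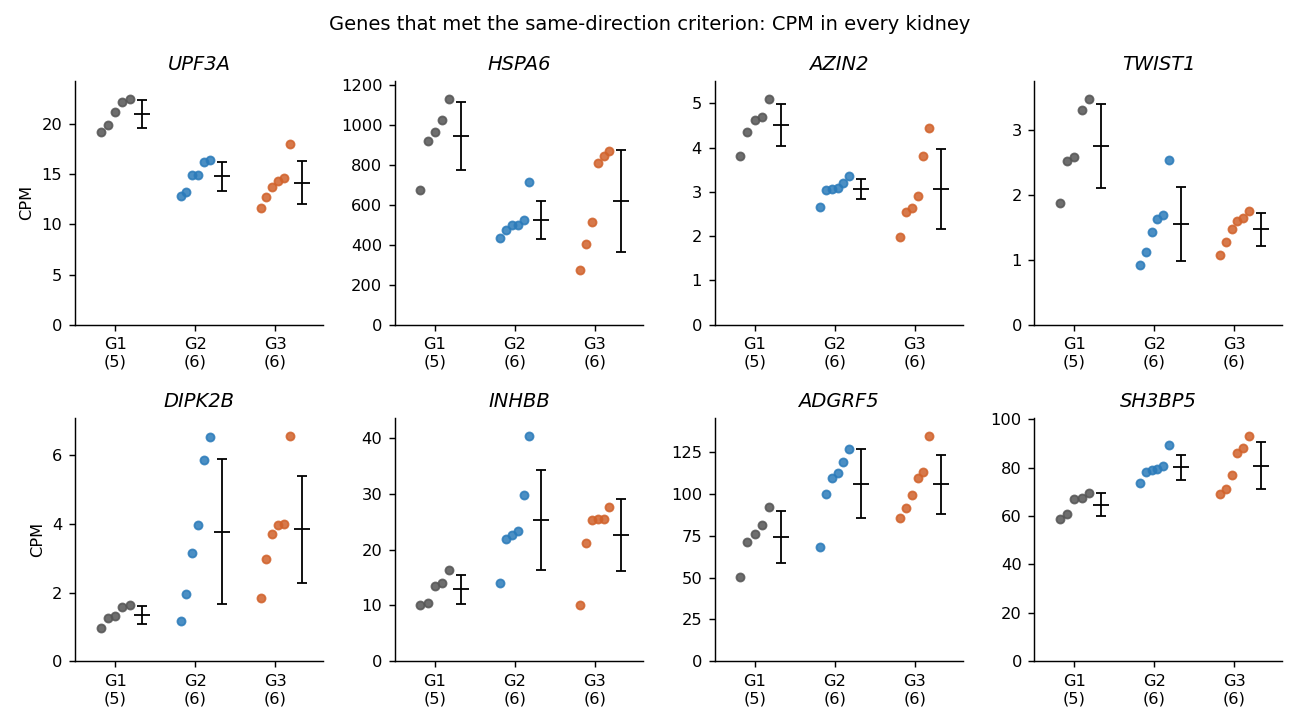
CPM of 8 genes that met the same-direction criterion, with 1 point per kidney (5 in G1, 6 in G2, 6 in G3) and the mean with its SD as a bar at the right of each group; every vertical axis starts at 0. UPF3A is below all G1 kidneys in all 12 treated kidneys, while for the other 7 genes between 1 and 4 treated kidneys do not lie past all G1 kidneys in the direction of the difference.

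Among the higher genes, ADGRF5, an adhesion G protein-coupled receptor found on endothelium and some epithelia, had G1 kidneys at 50.1, 71.4, 92.3, 76.0 and 81.6 CPM. G2 ran from 68.4 to 127 CPM with a median of 111, and G3 from 85.4 to 135 CPM with a median of 104. Of the 12 treated kidneys 9 were above all of G1. Its log2 difference was 0.51 ± 0.14 (SE; adjusted p = 0.83), 0.51 in either group, and the 95% interval of G3 minus G2 ran from -0.33 to 0.32. It was smaller in code series B, at 0.03, than in A, at 0.60, and C, at 0.46, and series B holds only 1 treated kidney. SH3BP5, a docking protein for the kinase JNK on mitochondria, was at 64.7 ± 4.62 CPM in G1, 80.0 ± 5.12 in G2 and 80.7 ± 9.76 in G3 (SD, n = 5, 6 and 6), with 11 of 12 treated kidneys above all of G1 and a log2 difference of 0.31 ± 0.09 (SE; adjusted p = 0.83).

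DIPK2B had the smallest p among the named higher genes. Its G1 kidneys stood at 1.65, 0.96, 1.57, 1.32 and 1.26 CPM, which is 21 to 38 counts. G2 ran from 1.19 to 6.52 CPM with a median of 3.56, and G3 from 1.85 to 6.57 CPM with a median of 3.84. All treated kidneys but G2 kidney 6 were above G1, and both treated groups spread more widely than G1. Set beside the summed level of the endothelial markers, which was 1142 to 1317 CPM in G1, the kidneys stood as follows. In G2 kidneys 1, 2 and 4, with DIPK2B at 5.87, 6.52 and 3.97 CPM, the sum was 1649, 1890 and 1607 CPM, and in G2 kidneys 3, 5 and 6, with DIPK2B at 3.15, 1.97 and 1.19 CPM, it was 1019, 968 and 1205 CPM. In G3 kidneys 1, 2, 4, 5 and 6 DIPK2B was at 4.01, 6.57, 3.97, 2.98 and 3.72 CPM. The sum in these kidneys was 1563, 1767, 1522, 1449 and 1581 CPM. G3 kidney 3 was the lowest of G3 in both, at 1.85 and 950 CPM, and was also the lowest of G3 for INHBB and WSCD1. In G2 kidneys 1, 2 and 4 and G3 kidneys 1, 2, 4, 5 and 6 both values were thus above every G1 kidney. G2 kidneys 3 and 5 and G3 kidney 3 had a lower sum than every G1 kidney and more DIPK2B than every G1 kidney. The log2 difference was 1.495 ± 0.34 (SE; adjusted p = 0.83), or 2.82-fold, with G3 minus G2 at 0.02 and a 95% interval from -0.68 to 0.72.

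INHBB, the subunit that forms activin B, a TGF-beta family ligand (15:30999994-31004405), was at 12.9 ± 2.596 CPM in G1, 25.3 ± 8.90 in G2 and 22.5 ± 6.46 in G3 (SD, n = 5, 6 and 6), and 10 of 12 treated kidneys were above all of G1. Its log2 difference was 0.89 ± 0.22 (SE; adjusted p = 0.83), or 1.86-fold. In the list of 23 mesenchymal transition and TGF-beta genes it was the 1 gene higher at an unadjusted p under 0.05. CCN2, a matrix-associated TGF-beta target, and BMP4, a ligand of the same family, were the 2 lower ones, at 229 and 19.9 CPM in G1, 176 and 15.7 CPM in G2 and 186 and 14.9 CPM in G3. Neither CCN2 nor BMP4 met the same-direction criterion. TWIST1, described above, belongs to this list but is not in its counts, because its symbol was not matched in the gene table.

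GC, which encodes the vitamin D binding protein of plasma, had the largest difference of the named set, 2.15 ± 0.58 on the log2 scale (SE; adjusted p = 0.83). It was scarce in G1, at 0.35 to 1.30 CPM or 8 to 30 counts, and 1 kidney, G2 kidney 6 at 12.1 CPM, stood far above the other treated kidneys, which lay between 0.98 and 4.32 CPM. CDA, the enzyme that deaminates cytidine, was at 49.7 ± 4.55 CPM in G1, 76.7 ± 24.9 in G2 and 73.8 ± 17.9 in G3, and 10 of 12 treated kidneys were above all of G1. WSCD1 was at 12.4 ± 2.35, 21.4 ± 11.2 and 25.5 ± 8.04 CPM, and DBNDD2 at 15.8 ± 2.94, 21.5 ± 2.41 and 20.9 ± 2.63 CPM (SD, n = 5, 6 and 6).

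**Figure D2:**
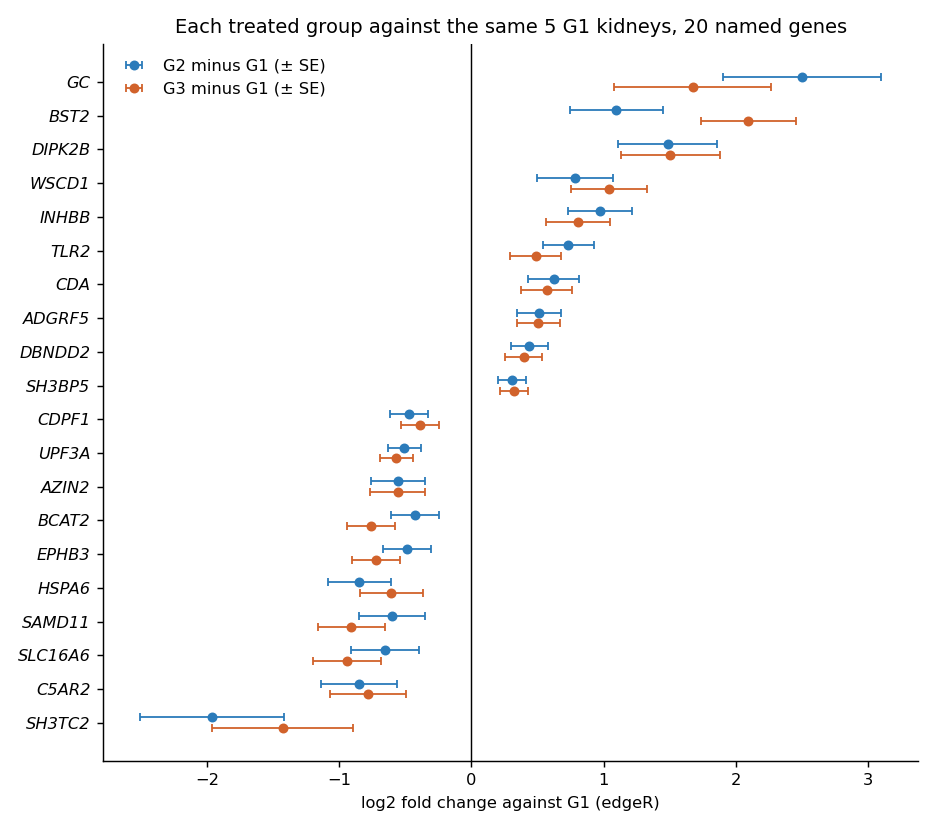
Log2 fold change of G2 and of G3 against the same 5 G1 kidneys, each with its standard error, for the 10 higher and 10 lower named genes that met the same-direction criterion with the smallest pooled p. For 7 of the 20 genes the 95% interval of G3 minus G2 lies within a 1.5-fold difference, and BST2 is the one with an unadjusted p under 0.05 between G3 and G2, at 1.10 in G2 and 2.10 in G3.

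Of the inflammatory genes, TLR2 and SOCS5 differed in both treated groups. TLR2, a receptor for bacterial lipoproteins, was at 14.0 ± 3.30 CPM in G1, 23.2 ± 3.89 in G2 and 19.6 ± 5.46 in G3 (SD, n = 5, 6 and 6), with 9 of 12 treated kidneys above all of G1. SOCS5, a suppressor of cytokine signalling, was at 57.1 ± 8.26 CPM in G1, 76.5 ± 1.17 in G2 and 71.7 ± 13.7 in G3, and the 6 G2 kidneys lay closely together between 74.7 and 77.7 CPM. These were the only 2 of 27 inflammatory cytokine and NF-kB genes with an unadjusted pooled p under 0.05, against 3.44% of all genes of that level. Both met the same-direction criterion, against 0.759% of all genes of that level, and the median over the list was 0.04. CD14, the coreceptor that marks monocytes, was higher in G2 only by its own comparison, at 7.85 ± 1.37 CPM in G1, 13.0 ± 2.49 in G2 (adjusted p = 0.86, unadjusted p under 0.05) and 9.93 ± 3.12 in G3 (adjusted p = 0.89, unadjusted p above 0.05), and G3 minus G2 was -0.38 with a 95% interval of -0.77 to 0.00. CD14 was the only 1 of the 14 leukocyte markers with at least 1 CPM to have an unadjusted pooled p under 0.05 (3.44% over all genes). Of the 14 markers 7 had a pooled value above 0, and the median was -0.01 pooled, -0.01 in G2 and -0.02 in G3. The summed level of the 17 matched markers ran from 125 to 170 CPM in G1, from 126 to 203 in G2 and from 144 to 167 in G3. The part of leukocytes in the levels of TLR2 and CD14 was not tested, and in biopsies more cells of a type and more RNA per cell cannot be told apart. The NMP circuit held autologous blood cells, and of the 7 matched red cell genes only HBB, at 1.76, 2.09 and 0.89 CPM in G1, G2 and G3, and SLC4A1, also a gene of the collecting duct, had a mean of at least 1 CPM over all kidneys.

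FKBP5, a cochaperone of the glucocorticoid receptor and a direct target of it, was at 42.9 ± 6.02 CPM in G1, 63.6 ± 10.3 in G2 and 64.4 ± 24.8 in G3 (SD, n = 5, 6 and 6). The G3 kidneys fell apart, with G3 kidneys 1, 3 and 6 at 44.1, 43.4 and 43.5 CPM, inside the G1 range of 38.3 to 53.3 CPM, and the other 3 from 69.0 to 100 CPM. It met the same-direction criterion, the only one of 9 glucocorticoid response genes to do so (0.759% over all genes). NR4A1, an immediate early nuclear receptor, was at 119 ± 24.5, 91.2 ± 20.03 and 93.4 ± 16.5 CPM in G1, G2 and G3, a pooled log2 difference of -0.37 ± 0.14 (SE; adjusted p = 0.83). It was the 1 gene of 21 immediate early genes with an unadjusted pooled p under 0.05 (3.44% over all genes), and 17 of the 21 had a value below 0, with a median of -0.11.

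Interferon-response genes stood higher mainly after the second scheme, G3. This list was chosen with earlier results of these data known. The study's own top genes of G3 against G1, from the same kidneys, include members such as BST2, TAP2 and MX1. The counts below therefore describe the list and are not an independent test of it. Of the 45 genes of this list with a mean of at least 1 CPM, 23 had an unadjusted pooled p under 0.05, all of them higher in treated kidneys, where 1.95% of all genes of that level were. The pooled value hid unequal groups: 2 of the 45 (BST2 and USP18) were higher in G2 than in G1 at an unadjusted p under 0.05, where 1.58% of all genes were, and 37 of the 45 were higher in G3 than in G1, where 2.16% were. G3 against G2 is a comparison without the G1 kidneys. It had 33 of the 45 higher at an unadjusted p under 0.05, where 1.33% of all genes were. Without G3 kidney 3 that count was 21. In the fit of every kidney all 45 had a G3 minus G2 value above 0, with a median of 0.70 against -0.01 over all genes. The median log2 difference from G1 was 0.21 in G2 and 0.90 in G3. Of the 23 genes picked out by the pooled test, 21 had a p of 0.05 or more in G2 against G1. The kidneys of a group were unequal: the summed level of the list ran from 1945 to 3594 CPM in G1, G3 kidneys 2 and 4 stood inside that range at 3283 and 3119 CPM, and the other 4 G3 kidneys stood above it, from 4266 to 7368 CPM. In G2, kidneys 3 and 6 were above G1 at 4088 and 4861 CPM and the other 4 were inside its range.

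Genes were called graded where G3 differed from both G1 and G2 in the same direction, each at an unadjusted p under 0.05. The rule sets no condition on G2 against G1, so a graded gene may have stood at the G1 level in G2. Graded genes made up 0.99% of all, 136 higher (0.512%) and 127 lower (0.478%), and there were 142 with at least 1 CPM (1.04%), 101 higher (0.737%) and 41 lower (0.299%). Of the 45 interferon-response genes 31 were graded, all of them higher, while 2 of the 45 were higher in G2 than in G1 at an unadjusted p under 0.05. Only 3 genes (0.0113%) were both graded and of the same direction in both treated groups: BST2 and 2 lower genes without a symbol. A slope on 0, 1 and 2 injections passed an adjusted p of 0.05 for no gene in edgeR (0%), with a smallest adjusted p of 0.1001 and 1625 genes (6.12%) at an unadjusted p under 0.05. DESeq2 called 13 genes for the same slope, among them the interferon-response genes BST2, TAP2, PSMB8, IFI44, HERC5 and DDX60, and limma voom called none. UPF3A, which stood alike in G2 and G3, was also among the 13, so a slope call alone does not set graded genes apart from shared ones.

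BST2, or tetherin, which holds budding enveloped viruses at the cell surface (2:60305306-60308295), was the 1 interferon-response gene of the named set that was higher in G2 and higher again in G3. Its G1 kidneys stood at 1.73, 4.43, 2.76, 2.48 and 2.35 CPM. G2 ran from 2.77 to 9.42 CPM with a median of 5.59, and G3 from 4.01 to 17.5 CPM with a median of 11.97. G1 and G2 overlapped in the kidneys below 4.43 CPM, and 5 of the 6 G3 kidneys were above all of G1. G2 minus G1 was 1.10 ± 0.35 (SE; adjusted p = 0.86), G3 minus G1 was 2.10 ± 0.36 (SE; adjusted p = 0.196), and G3 minus G2 was 1.00 with a 95% interval of 0.33 to 1.67. The slope was 1.05 ± 0.17 on the log2 scale per injection (SE; adjusted p = 0.1001). USP18, which takes ISG15 off proteins, met the same-direction criterion with wide spreads, at 6.33 ± 3.06, 10.3 ± 4.60 and 13.2 ± 4.40 CPM in G1, G2 and G3, and G3 minus G2 was 0.36 with a 95% interval of -0.29 to 1.00. It lost the criterion with library size only, edgeR's expression filter, limma voom and the replicate block. The same held without G1 kidney 1, 2 or 3, G2 kidney 1 or G3 kidney 1 or 5. USP18 also lost it without the 4 kidneys in which the mitochondrial gene ATP8 was nearly absent. Where every kidney had to reach 10 counts, 1 of the 45 interferon-response genes met the criterion, against 2 in the main fit.

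For the other 3 graded genes with the smallest slope p, G2 minus G1 was smaller than G3 minus G2. TAP2, which carries peptides to MHC class I molecules (7:25045085-25056915), had G1 kidneys at 23.5, 16.3, 24.96, 18.2 and 23.7 CPM, G2 from 20.5 to 27.1 CPM with a median of 24.7, and G3 from 28.6 to 46.4 CPM with a median of 36.6. All 6 G3 kidneys lay above all G1 and all G2 kidneys. PSMB8, a catalytic subunit of the immunoproteasome that lies beside TAP2 (7:25058456-25061666), was at 7.76 ± 1.27, 9.55 ± 1.76 and 14.4 ± 4.10 CPM, and IFI44, an interferon-induced gene, at 35.6 ± 8.26, 38.5 ± 6.89 and 69.7 ± 19.6 CPM (SD, n = 5, 6 and 6). G2 minus G1 was 0.20 for TAP2 (adjusted p = 0.86), 0.30 for PSMB8 (adjusted p = 0.86) and 0.11 for IFI44 (adjusted p = 0.96), none at an unadjusted p under 0.05. G3 minus G2 was 0.61, 0.60 and 0.86 in the same order, each with a 95% interval above 0.

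Among the antiviral effectors, DDX60, an RNA helicase of the cytoplasm, showed the widest contrast between the treated groups, at 6.41 ± 2.61 CPM in G1, 6.43 ± 1.40 in G2 and 18.7 ± 10.9 in G3 (SD, n = 5, 6 and 6), a pooled log2 difference of 0.97 that was 0.00 in G2 and 1.54 in G3. MX1, an antiviral GTPase, was at 127 ± 44.6, 173 ± 78.6 and 294 ± 119 CPM. ISG15, a ubiquitin-like protein that is joined to other proteins, was at 239 ± 69.4, 350 ± 136 and 468 ± 171 CPM and was not graded, since G3 minus G2 was 0.42 with a 95% interval of -0.10 to 0.94. The same kidneys stood apart for MX1: G2 kidney 3 at 239 CPM and G2 kidney 6 at 294 CPM stood above all G1 kidneys, and G2 kidneys 4 and 5, at 107 and 96.1 CPM, within the G1 range of 80.8 to 186 CPM, as was G3 kidney 4 at 162 CPM. G2 kidneys 3 and 6 are among the 3 kidneys with a low TMM factor.

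**Figure D3:**
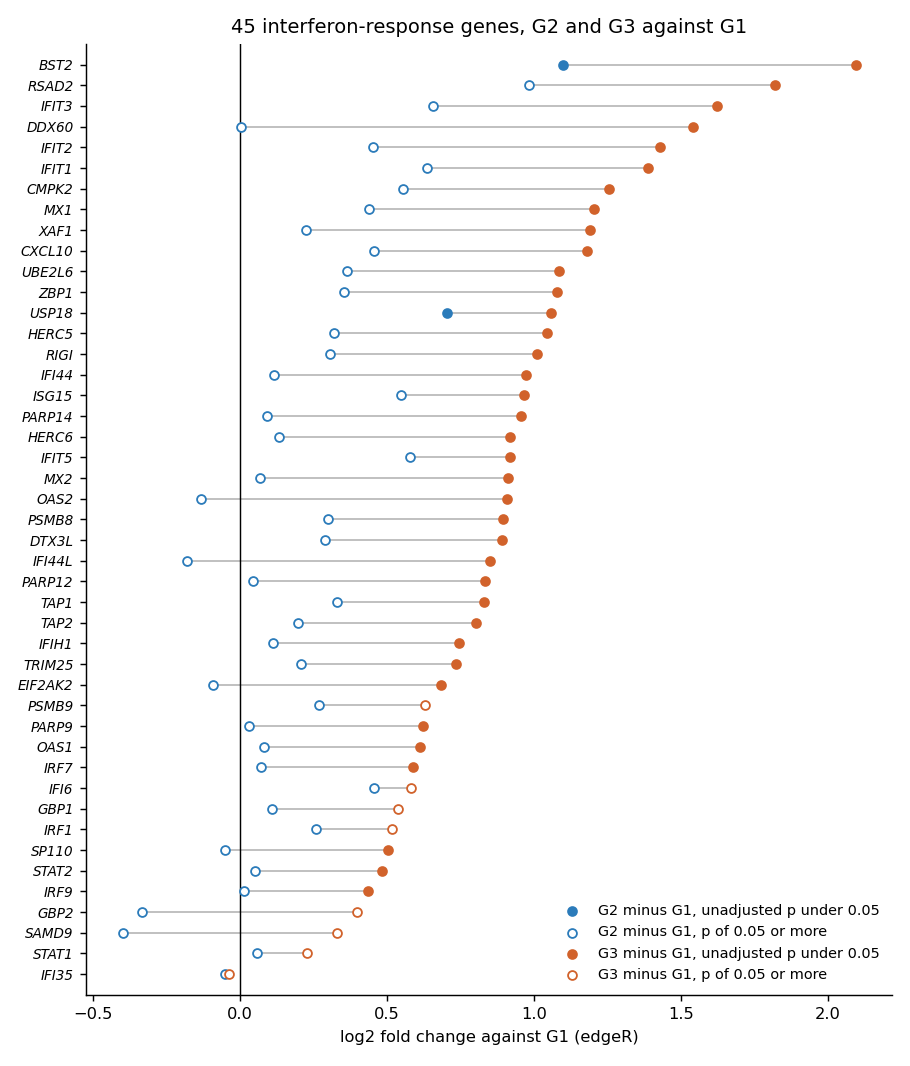
Log2 fold change of G2 and of G3 against the same G1 kidneys for the 45 interferon-response genes with a mean of at least 1 CPM, joined by a line for each gene, with filled points at an unadjusted p under 0.05 and open points otherwise. The G2 points are filled for BST2 and USP18, the G3 points are filled for 37 genes, and the G3 point lies to the right of the G2 point for all 45.

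**Figure D4:**
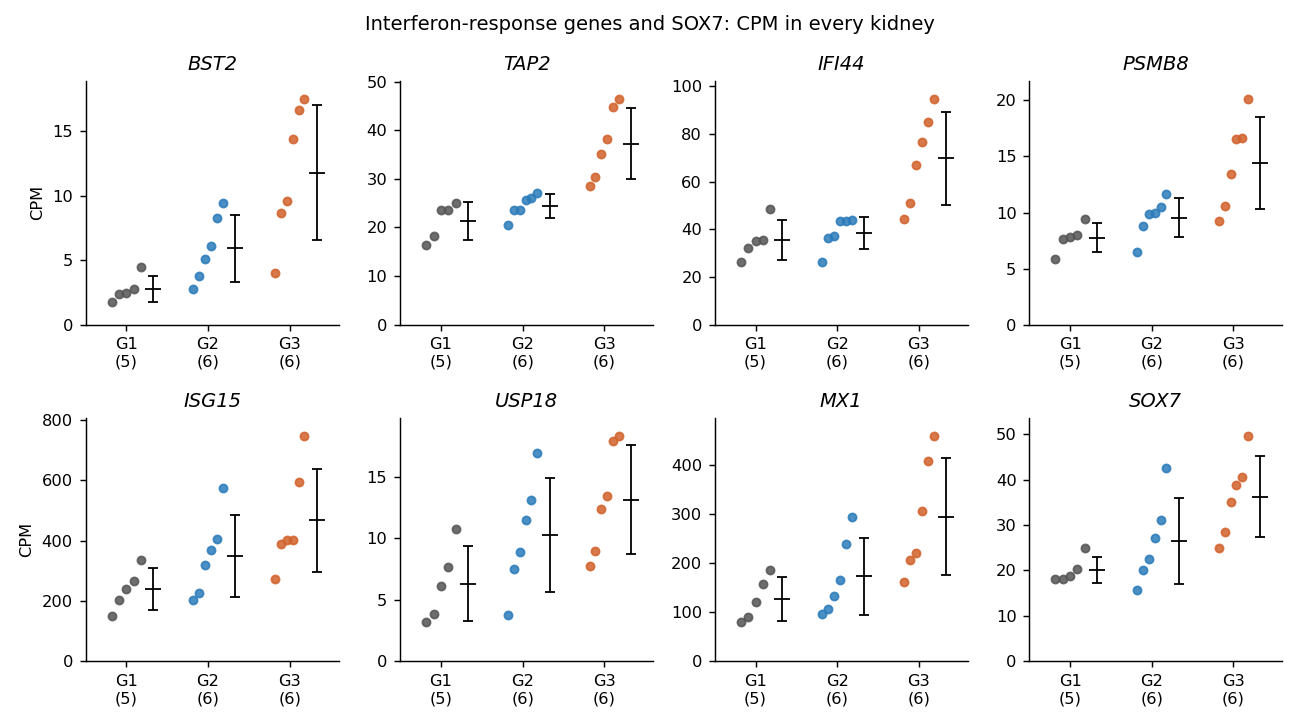
CPM of 7 interferon-response genes and SOX7, with 1 point per kidney (5 in G1, 6 in G2, 6 in G3) and the mean with its SD as a bar at the right of each group; every vertical axis starts at 0. For TAP2 the 6 G3 points lie above all others, and for BST2 the medians are 2.48 CPM in G1, 5.59 in G2 and 11.97 in G3.

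SOX7, an endothelial transcription factor whose name comes from a table of G3 against G1, was graded and did not meet the same-direction criterion. It was at 20.1 ± 2.83 CPM in G1, 26.5 ± 9.50 in G2 and 36.3 ± 8.90 in G3 (SD, n = 5, 6 and 6), with 3 of 6 G2 kidneys and all 6 G3 kidneys above all of G1. G2 minus G1 was 0.40 (adjusted p = 0.86, unadjusted p above 0.05), and G3 minus G2 was 0.45 with a 95% interval of 0.04 to 0.86. Of the 14 other endothelial markers with at least 1 CPM, PECAM1, a junction adhesion molecule, and ERG, a transcription factor, had an unadjusted pooled p under 0.05 (3.44% over all genes), and 13 of the 14 had a value above 0, where 7618 of all 13711 genes of that level had, with a median of 0.22 in G2 and 0.24 in G3. PECAM1 was at 92.4 ± 3.30 CPM in G1, 122 ± 39.4 in G2 and 115 ± 23.3 in G3, and G1 lay closely together while the treated groups spread from 63.9 to 167 CPM. ERG was at 20.1 ± 1.15, 25.03 ± 6.89 and 27.8 ± 4.42 CPM. The summed level of the 15 matched endothelial markers ran from 1142 to 1317 CPM in G1, from 968 to 1890 CPM in G2 and from 950 to 1767 CPM in G3. In G2 kidneys 1, 2 and 4, where this sum was above all of G1, SOX7 was at 31.2, 42.5 and 27.1 CPM. In G2 kidneys 3, 5 and 6, where it was not, SOX7 was at 22.4, 20.1 and 15.8 CPM. G3 kidney 3 had SOX7 at 28.4 CPM, above all of G1, with a sum of 950 CPM, below all of G1. In the other G3 kidneys both were above all of G1. The part of endothelial cell number in the levels of SOX7, ADGRF5, DIPK2B, INHBB and WSCD1 was not tested.

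In the remaining lists at most 3 members each had an unadjusted pooled p under 0.05, against 3.44% of all genes of that level. Of the 8 genes with at least 1 CPM that the study also chose for qRT-PCR, they were ISG15 and SOCS5, and that choice was made on these kidneys. HMOX1, which degrades heme, was highest in G2, at 190 ± 61.1 CPM in G1, 370 ± 127 in G2 and 250 ± 93.3 in G3, and G3 minus G2 was -0.57 with a 95% interval of -1.10 to -0.03. It and MT1A, a metallothionein whose level spread from 4.22 to 63.5 CPM over the treated kidneys, were the 2 of 16 oxidative stress genes past an unadjusted p of 0.05, and neither met the same-direction criterion. Of 23 hypoxia and glycolysis genes, HK1 was higher and PDK1 and ARNT2 lower. ARNT2, a partner of hypoxia-inducible factors, went from 78.3 ± 10.5 CPM in G1 to 64.2 ± 12.8 in G2 and 56.0 ± 6.16 in G3, with an adjusted p = 0.86 in G2 and an adjusted p = 0.89 in G3, of which only G3 was under 0.05 unadjusted. STMN1, a microtubule regulator of dividing cells, was the 1 of 14 cell cycle genes past an unadjusted p of 0.05, at 37.6 ± 7.86, 33.6 ± 7.49 and 26.1 ± 2.599 CPM, and it was graded.

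Lists of tubule segments, injury and vesicle handling held few or none. Of 11 kidney injury genes, 0 had an unadjusted pooled p under 0.05, and TIMP1 and SPP1, the highest by their mean over all 17 kidneys, were at 561 and 555 CPM in G1, 622 and 403 in G2, and 603 and 448 in G3. Of 19 genes of the vesicle machinery 0 passed, and the EV tetraspanin CD63 was at 234, 257 and 251 CPM, and ANXA2, which with CD63 had the highest mean over all 17 kidneys, at 260.9, 234 and 279 CPM. The count was also 0 of 15 for cell death and p53, 0 of 21 for nuclear oxidative phosphorylation, 0 of 16 for the circadian clock, 0 of 9 for the collecting duct and 0 of 9 for loop of Henle and distal tubule. It was 1 each for proximal tubule (SLC22A6, of 15), podocyte (SYNPO, of 6), fibroblast and mural cell (PDGFRA, of 12), complement and coagulation (CFB, of 16), endocytosis and lysosome (CTSB, of 19) and mitochondrially encoded genes (ND5, of 13). All 9 collecting duct genes had a pooled value above 0, with a median of 0.28 (0.53 in G2, 0.25 in G3). All 21 genes of nuclear oxidative phosphorylation did too, with a median of 0.09. Above 0 were 7 of 15 cell death and p53 genes, 11 of 16 of the circadian clock and 5 of 9 of loop of Henle and distal tubule. Over all genes of that level 7618 of 13711 were. All 13 mitochondrially encoded genes had a pooled value above 0, with a median of 0.35, and ND5 was at 4380 ± 1172 CPM in G1, 5961 ± 2293 in G2 and 6190 ± 1467 in G3 (SD, n = 5, 6 and 6). In 4 kidneys, G1 kidney 1, G2 kidneys 2 and 3 and G3 kidney 5, ATP8 was nearly absent, at 0.52, 4.76, 1.68 and 2.61 CPM against 673 to 1212 CPM in the others, and ND1 was lower too, at 611 to 1349 CPM against 2613 to 6611 CPM. Without these 4 kidneys the median of the 13 genes was 0.43, all 13 were above 0, and ND4L rather than ND5 had an unadjusted pooled p under 0.05.

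**Figure D5:**
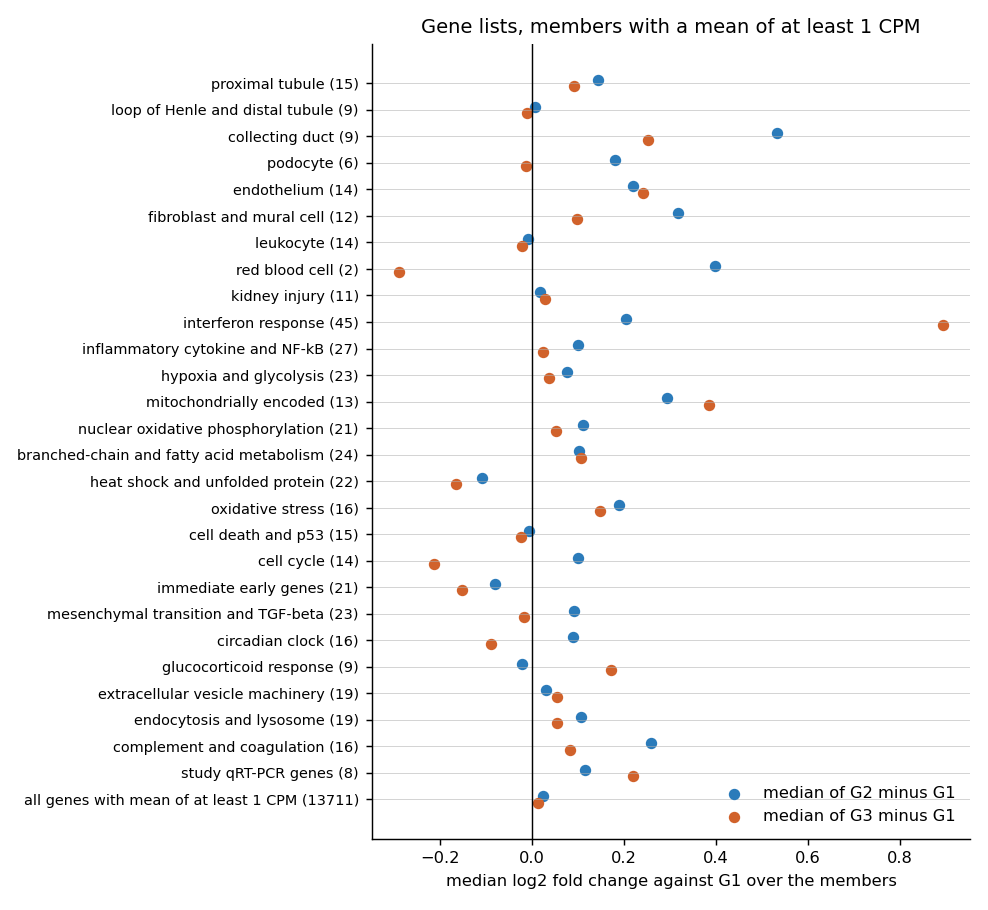
Median log2 fold change of G2 and of G3 against the same G1 kidneys over the members of each gene list with a mean of at least 1 CPM, whose number stands in brackets, with all genes of that level in the last line. For the interferon-response list the medians are 0.21 in G2 and 0.90 in G3, and over all genes they are 0.03 and 0.01.

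The code series hold unequal parts of the groups: in series A, G1 and G2 contribute 2 kidneys each and G3 contributes 1, series B lacks G2 and sets 2 untreated kidneys beside 1 from G3, and series C sets 1 untreated kidney beside 4 from either treated group. What the series stand for is not given in the sources used here. The 20 named genes of the same-direction set were chosen on these kidneys, which bears on their sign in any part of them, so it is not read as support. With the code series as a covariate 17 of the 20 still met the criterion, the exceptions being TLR2, DBNDD2 and EPHB3. Leaving out each of the 17 kidneys in turn, 12 of the 20 met the criterion every time. The other 8 lost it without 1 or more kidneys: WSCD1 without G2 kidney 2, EPHB3 without G1 kidney 3, CDPF1 without G1 kidney 5, C5AR2 without G1 kidney 2, TLR2 without G1 kidney 2 or G3 kidney 6, SH3TC2 as above, SAMD11 without any 1 of 3 kidneys and BCAT2 without any 1 of 5. Without the 3 kidneys with a low TMM factor, an alternative chosen after seeing the data, 16 of the 20 met it, the exceptions being BST2, CDA, TLR2 and SLC16A6. In that fit 97 genes with at least 1 CPM met the criterion, and of the 45 interferon-response genes 1 was higher in G2, 37 were higher in G3 and 36 were graded. Without the 4 kidneys in which ATP8 was nearly absent, also chosen after seeing the data, 13 of the 20 met the criterion, the exceptions being ADGRF5, WSCD1, SH3TC2, SLC16A6, BCAT2, HSPA6 and SAMD11. In that fit 113 genes with at least 1 CPM met it, and of the 45 interferon-response genes 1 was higher in G2, 34 were higher in G3 and 24 were graded.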

How the data were processed

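RNA from biopsies of 17 porcine kidneys was sequenced from stranded mRNA libraries. The authors trimmed adapters with cutadapt 4.0, aligned the reads to Sscrofa11.1 with STAR and deposited 1 table of counts, in which no value had been normalized. The counting program, its strand setting and its handling of reads that fit several genes are not given in the sources used here, so overlapping and closely related genes may share counts. The authors also deposited a DESeq2 table of G3 against G1 (fold changes and p-values), of which only gene symbols were used, for SOX7 and TWIST1.

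Counts of the 26560 genes with at least 1 count were analysed in R 4.3.3 with edgeR 4.0.16 (quasi-likelihood fit, TMM scaling) and Benjamini-Hochberg adjustment. There were 3 fits: G2 and G3 pooled against G1, the 3 groups apart, and a slope on the number of injections. Every p-value, where no other test is named, comes from these fits, and SE is the standard error of the log2 difference. Each kidney came from 1 animal. Symbols matched 15093 genes, and positions are those of RefSeq for Sscrofa11.1. Means, SDs and ranges are of CPM with TMM factors, and differences within a code series are of mean log2 CPM with a prior count of 2.

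Named genes were set by a rule: the 10 higher and 10 lower genes of the same-direction set with a symbol, a mean of at least 1 CPM and the smallest pooled p, the 4 graded genes with the smallest slope p, SOX7, ISG15 and TWIST1, and for each list up to 4 members with an unadjusted pooled p under 0.05 or, with none, the 2 of highest level. The groups compared, the gene lists and this rule were chosen with earlier results of these data known. Alternatives were DESeq2 1.42.0, limma 3.58.1 voom, other scalings and filters, the code series, a replicate block and leaving out kidneys. The scripts were tested on simulated data. Kidneys of one group differed by far more than counting error, with a chi-square per degree of freedom of at least 21.4 over the 40 pairs within a group, so none of these pairs agreed within counting error. Sequences of members are not shown, as no sequence table was used here.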

Additional observations from a re-analysis of the deposited data

Results flagged for a closer look

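In groups of 5 or 6 kidneys, the highest or lowest kidney was marked when its gap to the next one was large for the whole range of the group (Dixon's test at the 95% level). Of 84 groups of values, those of the 26 named genes, the total counts and the detected genes, 6 were marked, and chance marks about 1 in 20, or 4.2 of 84. G3 kidney 3 was low for INHBB, at 10.1 CPM where the other G3 kidneys ran from 21.2 to 27.6 CPM, and for WSCD1, at 10.9 CPM where the others ran from 21.6 to 32.3 CPM. The WSCD1 level lies in the G1 range and the INHBB level just below it. G1 kidney 4 was low for SLC16A6, at 11.0 CPM against 23.5 to 26.7 CPM in the other G1 kidneys, and so stood among the treated kidneys. G2 kidney 6 was high for HSPA6, at 714 CPM against 437 to 524 CPM, and is the 1 kidney of G2 within the G1 range. G2 kidney 2 was low for SAMD11, at 1.76 CPM against 2.64 to 3.30 CPM, and G2 kidney 5 was low for IFI44, at 26.3 CPM against 36.3 to 43.9 CPM. The causes of these values were not tested.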

How the results depend on the processing

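In edgeR no gene passed an adjusted p of 0.05 in the pooled comparison with RLE size factors, library size only, both filters on low counts or any 1 kidney left out, where between 471 and 1476 genes had an unadjusted p under 0.05. With the DESeq2 Wald test 3 genes did, with limma voom 1 gene and with the code series as a covariate 1 gene. The slope on injections passed for 13 genes in DESeq2 and 2 with the code series, and for 0 to 3 genes with 1 kidney left out (3 without G1 kidney 2, 1 without G3 kidney 1). BST2 was called in both of those. The 241 genes of the same-direction set became 117 with edgeR's expression filter, 106 where each kidney had to reach 10 counts, 406 with limma voom and 26 at p under 0.01 in both, and the filters test fewer genes. With 1 kidney left out it ran from 171 to 305, and between 132 and 190 of those were among the 241. Without the 3 kidneys of low TMM factor, an alternative chosen after seeing the data, it was 169, of which 96 were among the 241, and BST2, CDA, TLR2 and SLC16A6 lost the criterion. Without the 4 kidneys with ATP8 under 10 CPM, also chosen after seeing the data, it was 189, of which 81 were among the 241, and no gene passed an adjusted p of 0.05 in the pooled comparison or for the slope (1192 and 1558 at an unadjusted p under 0.05). With library size only, 45 of 260 were higher where 93 of 241 were with TMM, and the median of all genes moved from 0.02 to -0.07; all 20 named genes kept their sign there, and SH3BP5, TLR2 and DBNDD2 lost the criterion. With a replicate block 10 genes were called in the pooled comparison (among them DIPK2B, BST2, WSCD1, BCAT2 and HSPA6) and 4 for the slope (BST2, TAP2, SOX7 and 1 gene without a symbol); the labels give no meaning to the number, and 8 of 16 same-numbered pairs had a correlation of deviations over 0.1, with a median of 0.10 against -0.01 for other pairs, so whether the numbers pair the kidneys was not settled. The 26 named genes kept the direction of their log2 difference under every alternative run. The difference in total counts was between 1343234.5 and 1840182 without 1 kidney, and its exact permutation p was 0.05 or more in 13 of 17 cases. With 1 kidney left out, 1 to 4 of the 45 interferon-response genes were higher in G2 and 33 to 38 in G3. From 21 to 34 were graded. The 4 came without G2 kidney 5, and the 21 graded came without G3 kidney 3. Higher in G3 than in G2 were from 21, without G3 kidney 3, to 35, without G2 kidney 6. Low depth limits the 137 genes of the set under 1 CPM, whose means are at most 19.8 counts per kidney. The causes of these shifts were not tested.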

Other observations

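The 5 genes below are among the 58 that met the same-direction criterion with G3 within 1.5-fold of G2, and they were chosen after their values were seen, so they stand for no class of genes. IFNAR2, a chain of the type I interferon receptor, was at 28.1 ± 2.14 CPM in G1, 34.2 ± 4.49 in G2 and 36.6 ± 3.71 in G3 (SD, n = 5, 6 and 6), and 11 of 12 treated kidneys were above all of G1. IL10RB, a shared chain of the interleukin-10 family receptors, was at 18.4 ± 2.57, 23.2 ± 3.60 and 23.5 ± 4.25 CPM, with 6 of 12 above G1. For IFNAR2 the G3 minus G2 value was 0.10 with a 95% interval of -0.13 to 0.33, whereas most interferon-response genes themselves were graded. PPP1R15A, which promotes the recovery of protein synthesis after stress, was at 397 ± 41.8, 311 ± 73.0 and 291 ± 52.5 CPM, and 10 of 12 treated kidneys were below all of G1. SIRT3, a mitochondrial deacetylase, was lower, at 16.7 ± 2.42, 12.5 ± 3.13 and 13.2 ± 1.16 CPM, and TRAP1, the mitochondrial HSP90 chaperone, was higher, at 36.5 ± 10.5, 51.1 ± 11.2 and 49.2 ± 9.31 CPM. None of these had an adjusted p under 0.05.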
